A study of Homo sapiens with 4 samples.

Results

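Telomere maintenance was followed in 10 genes, found by gene symbol, in RNA-seq of BJ-5ta fibroblasts: TERT and its H/ACA partner proteins DKC1, NOP10 and NHP2 (4 genes), and TERF1, TERF2, TERF2IP, POT1, TINF2 and ACD (6 genes), which encode shelterin. They are 10 of 56620 gene symbols in a table of 63651 rows, and they were picked by name with the FPKM of both conditions already known. BJ-5ta is a human foreskin fibroblast line made immortal by a TERT transgene, and all cultures derive from it. The tested cultures were 2 samples in which FOXA2, a forkhead factor that can bind closed chromatin, was switched on with 0.5 µg/ml doxycycline (induced). Their controls were 2 samples of the same FOXA2-inducible, puromycin-selected and hygromycin-grown cells without the drug (uninduced). The labels call the inducible cells clonal without giving the number of clones sequenced, and no library with doxycycline but without the FOXA2 transgene was analysed here. The labels do not state what drives the TERT transgene, how long FOXA2 was induced (the induced column is headed BJ_4DFoxa2, and nothing explains the 4D) or which cultures received mimosine, which halts cells in G1.

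Telomerase is a reverse transcriptase that adds repeats to chromosome ends by copying a template in its own RNA, TERC. Normal adult fibroblasts keep the endogenous TERT gene silent, which is why an added TERT copy lets them divide without limit. Dyskerin, NOP10, NHP2 and GAR1 bind the H/ACA end of TERC and also the H/ACA RNAs that guide pseudouridylation of ribosomal RNA, so these proteins serve ribosome production as well as telomeres. Shelterin coats the finished repeats, hides the ends from DNA repair and controls the access of telomerase.

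The values are FPKM, fragment numbers scaled to transcript length and to library size, so that levels of different genes can be compared per length. Each condition has 1 FPKM per gene with a deposited lower and upper bound (its interval), and there is no value per sample. The spread between replicates is thus unknown, and the comparison carries neither a p-value nor an SD. The level of the intervals is not stated. Only genes with separate intervals in the 2 conditions are said here to have risen or fallen. Read numbers are not in the table, so depth is unknown. FOXA2 rose to 104 FPKM (interval 50.2 to 158) in induced cells, against 4.82 FPKM (0.526 to 9.12) in uninduced cells. All 10 fibroblast markers were present, with a summed level of 3116 FPKM in induced and 4990 FPKM in uninduced cells. They differed in both directions, 7 lower in induced cells, such as VIM (905 FPKM induced and 2098 FPKM uninduced), and 3 higher, such as COL3A1 (445 FPKM induced and 125 FPKM uninduced). Of 13 markers of other cell types, 3 passed a filter of 1 FPKM in at least 1 condition (PMEL, PTPRC and APOA1). The summed level of all 13 was 4.45 FPKM in induced and 1.56 FPKM in uninduced cells, and KRT1, KRT5, CDH5, PECAM1 and CD3E were listed at 0 in both.

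All 10 genes passed that filter. As deposited, TERT and its 3 partners were lower in induced than in uninduced cells, TERT by the most and NOP10 by the least in ratio. The 6 shelterin genes lay on both sides of 0. None of the 10 rose or fell, where 1.18% of all 14319 kept genes did. By a wider criterion, an interval of the difference that leaves out 0, TERT alone passed, as a decrease, beside 1.11% of kept genes passing in that direction. The median log2 difference, taken as log2(FPKM + 1) in induced minus that in uninduced cells, was -0.98 over TERT and the H/ACA genes, 0.11 over shelterin and 0.05 over all kept genes. In bulk RNA, fewer cells expressing a gene and less of its RNA per cell cannot be told apart.

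**Figure D1:**
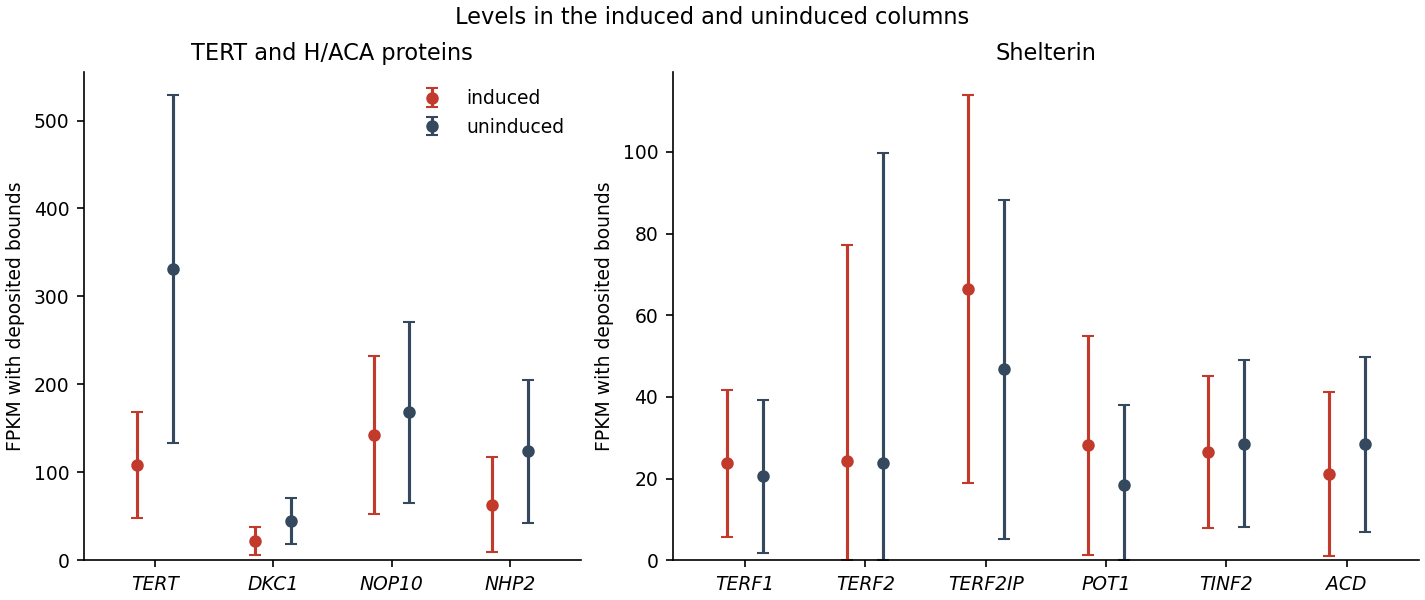
FPKM of the 10 genes in induced (red, left of each pair) and uninduced (dark, right) cells, with bars for the deposited lower and upper bounds; the left panel has a larger scale than the right. The intervals of each pair overlap, with the smallest shared stretch relative to its level for TERT, from 133 to 168 FPKM.

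TERT encodes the catalytic subunit of telomerase. Its row (ENSG00000164362) spans chromosome 5, 1253262 to 1295184, in hg19, and no other row of the table overlaps that span. TERT was at 108 FPKM (interval 47.7 to 168) in induced cells and at 331 FPKM (133 to 529) in uninduced cells. The induced level was 0.326 times the uninduced level, a log2 difference of -1.61, and the intervals shared only the stretch from 133 to 168 FPKM. The FPKM difference was -223, with an interval of -430 to -16.1 when the distances from FPKM to upper bound of both columns are combined in quadrature. That interval excluded 0 as deposited, but it no longer did so with the columns scaled to the same FPKM sum or quantile normalized. The direction was lower under every setting tried, with log2 differences between -1.66 and -1.32. Only scaling, quantile normalization or centring of the columns could have reversed it. A gene-level FPKM does not separate transgene RNA from RNA of the endogenous gene.

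In uninduced cells TERT was among the most abundant transcripts of the table, at rank 224 of 63651 rows, and in induced cells it was at rank 788. In the class of kept genes with a mean of 100 to 300 FPKM, which holds TERT, the median was -0.34, and 19 of 774 genes had a lower difference than TERT.

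Around the endogenous TERT gene, 3 of 8 neighbours passed the filter, and these differed among themselves: CLPTM1L and LPCAT1 had log2 differences of 0.12 and 0.02, and TRIP13 had one of -2.07. SLC6A19 and SLC6A18, amino acid transporter genes on one side of it, and SLC6A3, the dopamine transporter gene on the other, were listed at 0 in both conditions, as was NKD2. SLC12A7, a potassium chloride cotransporter gene, was at 0.288 FPKM in induced and 0.0414 FPKM in uninduced cells, under the filter. CLPTM1L, the nearest neighbour with a measurable level, was at 125 FPKM (37.3 to 212) in induced cells and 115 FPKM (32.4 to 197) in uninduced cells. LPCAT1, which encodes a phospholipid-remodelling enzyme, was at 26.6 FPKM in induced and 26.2 FPKM in uninduced cells. TRIP13, an ATPase of the mitotic checkpoint, had a lower log2 difference than TERT. It was at 9.80 FPKM (0 to 27.7) in induced and 44.4 FPKM (0 to 90.1) in uninduced cells. None of the 3 rose or fell, beside 1.18% of all kept genes.

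**Figure D2:**
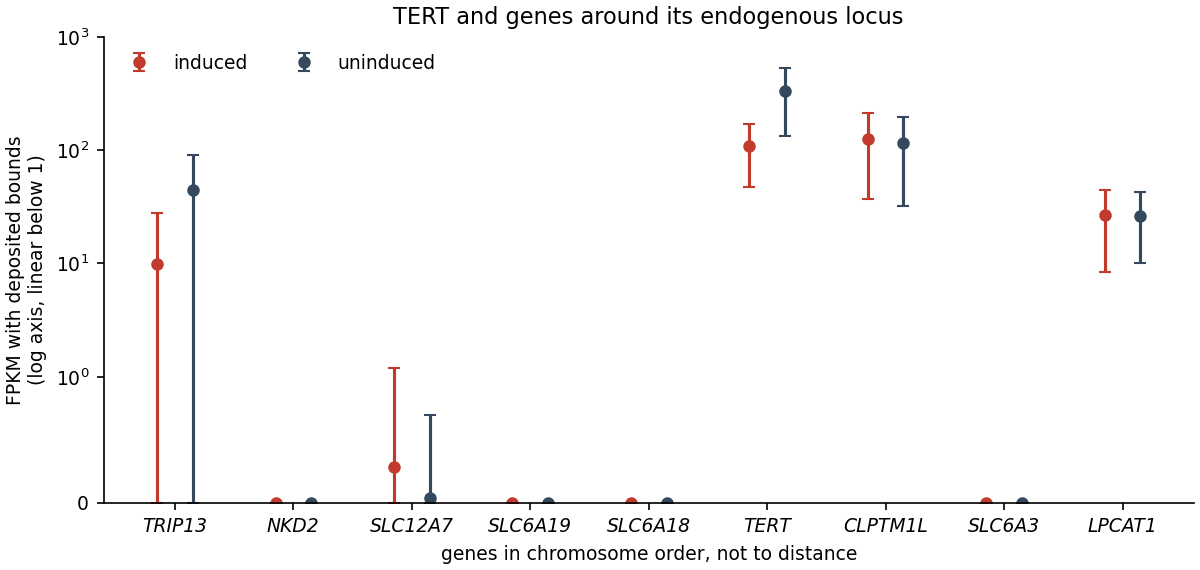
FPKM with deposited bounds of TERT and 8 genes around its endogenous locus, in chromosome order and not to distance, on an axis that is logarithmic above 1 and linear below; induced (red) stands left of uninduced (dark). TERT is at 108 and 331 FPKM, while SLC6A19, SLC6A18, SLC6A3 and NKD2 sit at 0 in both conditions.

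The RNA partner of TERT was nearly absent from these libraries. TERC was at 0.0843 FPKM (0 to 0.742) in induced and 0.196 FPKM (0 to 0.860) in uninduced cells, under the filter in both. The stretch of TERC that TERT copies is shown to place the repeat that the enzyme adds. It lies at bases 46 to 56 of the 541-base TERC transcript in GENCODE v29, written here with T for U, and the capitals mark the 11 template bases.
TERC template: attttttgtCTAACCCTAACtgagaaggg
The template holds the reverse complement of the telomere repeat TTAGGG. Whether the library kit kept this RNA, which has no stable poly(A) tail, is not stated in the labels, so its low level says nothing of how much TERC the cells held.

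Of the H/ACA core proteins, DKC1 and NHP2 had nearly the same ratio between conditions, and NOP10 a smaller difference. DKC1 encodes dyskerin, the pseudouridine synthase (chromosome X, 153991031 to 154005964, hg19). It was at 21.7 FPKM (5.66 to 37.8) in induced and 44.5 FPKM (18.2 to 70.9) in uninduced cells and thus at 0.488 times the uninduced level. The intervals shared 18.2 to 37.8 FPKM, and the interval of the difference ran from -53.7 to 8.06 FPKM. A second DKC1 row, on a patch sequence, was listed at 0 in both conditions.

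NHP2 encodes a small protein of the same core (chromosome 5, 177557997 to 177580968), in a span that the table also gives for RMND5B. It was at 63.1 FPKM (8.77 to 117) in induced and 124 FPKM (42.8 to 205) in uninduced cells, 0.509 times the uninduced level (a log2 difference of -0.96), with intervals sharing 42.8 to 117 FPKM. NOP10, the smallest core protein (chromosome 15, 34633917 to 34635378), was at 142 FPKM (52.0 to 232) in induced and 168 FPKM (65.3 to 271) in uninduced cells, a log2 difference of -0.24. NHP2 stood at 2.90 times the level of DKC1 in induced and 2.78 times in uninduced cells, nearly the same proportion. NOP10 stood at 6.54 times the level of DKC1 in induced and 3.77 times in uninduced cells.

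On the log2(FPKM + 1) scale TERT and DKC1 were at least 2-fold lower in induced cells, where 6.03% of kept genes were. DKC1 lay just inside that limit and NHP2 just outside it, and DKC1 was at a log2 difference of -0.81 after both columns were given the same FPKM sum. Among 3291 kept genes with a mean of 30 to 100 FPKM, whose median log2 difference was -0.13, 200 were lower than DKC1 and 218 were lower than NHP2. NOP10 was close to the middle of its class, with 446 of 774 genes of 100 to 300 FPKM below it.

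The order of levels among the 4 genes differed between conditions. In uninduced cells TERT was highest, then NOP10, NHP2 and DKC1. In induced cells NOP10 was highest, then TERT, NHP2 and DKC1. TERT stood at 0.760 times the level of NOP10 in induced cells and 1.97 times in uninduced cells, but the intervals of the 2 genes overlapped in each condition. The interval of DKC1 lay below those of TERT and NOP10 in induced cells, and below that of TERT in uninduced cells.

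The promoters of the 3 H/ACA genes are shown for the letters they hold, with nothing read from them about the levels. The sequences are from RefSeq in GRCh38.p14, 250 bases before to 50 after the gene start on the gene's strand. They were searched on both strands for TGTTTAC (the FOXA core), CACGTG (the E-box of MYC and MAX), GGGCGG (the GC box) and TTAGGG (the telomere repeat), and capitals mark every match; neighbouring matches can run together, as TTAGGG and GGGCGG do in NHP2.
DKC1, chrX:154762614-154762913, plus strand: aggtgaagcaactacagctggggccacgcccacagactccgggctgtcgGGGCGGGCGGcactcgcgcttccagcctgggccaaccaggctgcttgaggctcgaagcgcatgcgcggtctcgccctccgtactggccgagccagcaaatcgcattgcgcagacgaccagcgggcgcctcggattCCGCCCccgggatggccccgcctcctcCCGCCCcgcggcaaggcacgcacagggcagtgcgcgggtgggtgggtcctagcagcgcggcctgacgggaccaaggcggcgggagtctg
NHP2, chr5:178153836-178154135, minus strand: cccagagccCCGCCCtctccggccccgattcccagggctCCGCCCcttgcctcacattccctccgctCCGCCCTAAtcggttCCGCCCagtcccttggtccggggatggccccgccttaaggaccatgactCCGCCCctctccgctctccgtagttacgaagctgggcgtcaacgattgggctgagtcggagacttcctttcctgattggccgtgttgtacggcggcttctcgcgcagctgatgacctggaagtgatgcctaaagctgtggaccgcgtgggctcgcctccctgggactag
NOP10, chr15:34343087-34343386, minus strand: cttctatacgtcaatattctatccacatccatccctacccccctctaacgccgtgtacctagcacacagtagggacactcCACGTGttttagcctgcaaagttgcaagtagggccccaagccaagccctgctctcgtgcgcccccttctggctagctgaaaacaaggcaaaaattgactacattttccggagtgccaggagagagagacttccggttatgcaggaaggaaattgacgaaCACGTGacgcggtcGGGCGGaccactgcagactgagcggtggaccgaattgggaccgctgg
DKC1 held 4 GC boxes and NHP2 held 5 with 1 telomere repeat, while NOP10 held 2 E-boxes and 1 GC box. The promoter of the endogenous TERT gene held 1 E-box and 3 GC boxes. Whether these motifs bear on the levels was not tested. Promoters were searched for 8 of the 10 genes, and those of TERF1 and TERF2 were left out. All 8 held a GC box, which 48.3% of 27305 genes hold in the same window, and 2 (NOP10 and TERT) held an E-box, against 8.77% of all. The FOXA core was in 0 of the 8 and in 4.19% of all. A match is a string of letters in this window, and its absence says nothing about where FOXA2 binds.

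Shelterin transcripts were of low to moderate level in both conditions, between 21.2 and 66.3 FPKM in induced and between 18.5 and 46.7 FPKM in uninduced cells. TERF1 encodes TRF1, which binds double-stranded telomere repeats and restrains telomerase (chromosome 8, 73921099 to 73960357). The TERF1 and NHP2 pseudogenes of the table were all listed at 0. TERF1 was at 23.7 FPKM (5.64 to 41.8) in induced and 20.5 FPKM (1.83 to 39.2) in uninduced cells. TERF2 encodes TRF2, which binds the same repeats and keeps ends from being joined (chromosome 16, 69139467 to 69442474). It was at 24.2 FPKM (0 to 77.1) in induced and 23.8 FPKM (0 to 99.8) in uninduced cells. Both DNA-binding subunits were thus at similar values in the 2 conditions, with log2 differences of 0.20 and 0.02. The TERF2 value is the least precise of the 10, since its upper bound lay 219% above the FPKM in induced and 319% above it in uninduced cells. Its span of 303008 bases is also that of 17 other rows, 12 of them kept, so reads may not be assigned to TERF2 with certainty.

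TERF2IP encodes RAP1, the partner of TRF2 (chromosome 16, 75661622 to 75795770), and shares its span with KARS. It was the most abundant shelterin transcript, at 66.3 FPKM (18.8 to 114) in induced and 46.7 FPKM (5.28 to 88.1) in uninduced cells, a log2 difference of 0.50. POT1 binds the single-stranded overhang at the chromosome end. Its row spans chromosome 7, 124462440 to 125019375, a stretch of 556936 bases also given for 9 other rows, none of them kept. POT1 was at 28.1 FPKM (1.34 to 54.9) in induced and 18.5 FPKM (0 to 37.9) in uninduced cells. Its log2 difference of 0.58 was the highest of the 10. Both intervals of the difference spanned 0, from -43.4 to 82.6 FPKM for TERF2IP and from -23.5 to 42.7 FPKM for POT1. The libraries do not keep strand, and the antisense gene POT1-AS1, which shares the POT1 span, was at 0.782 FPKM in induced and 0.550 FPKM in uninduced cells.

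TINF2 encodes TIN2, the hub that links the double-strand binders to the overhang proteins (chromosome 14, 24708849 to 24711880). It was at 26.5 FPKM (7.86 to 45.1) in induced and 28.5 FPKM (8.05 to 49.0) in uninduced cells, a log2 difference of -0.10. ACD encodes TPP1, which holds POT1 and recruits telomerase (chromosome 16, 67678822 to 67694713). It was at 21.2 FPKM (1.10 to 41.2) in induced and 28.3 FPKM (6.84 to 49.8) in uninduced cells, a log2 difference of -0.40. POT1 stood at 1.33 times the level of its partner ACD in induced cells and 0.653 times in uninduced cells, with overlapping intervals of the 2 genes in each condition. The 6 shelterin intervals overlapped one another within each condition, so no order among them exceeded its error.

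**Figure D3:**
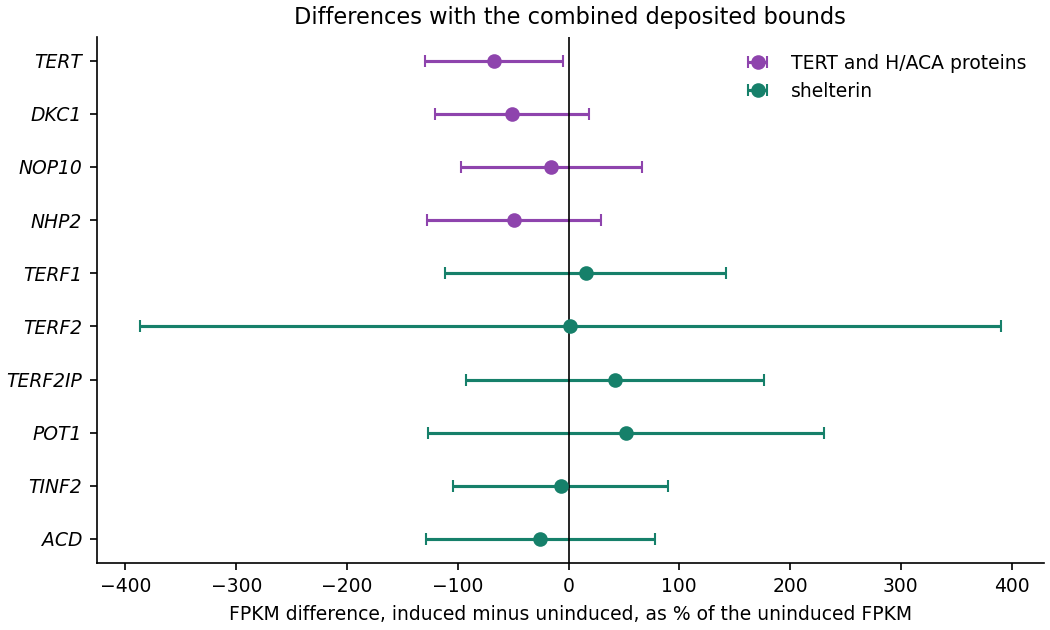
FPKM difference, induced minus uninduced, as a percentage of the uninduced FPKM for each of the 10 genes, with bars combining the distances from FPKM to upper bound of both columns in quadrature; purple marks TERT and the H/ACA genes and green marks shelterin. The TERT bar ends below 0, at -4.86% of the uninduced FPKM, the other 9 bars span 0, and the TERF2 bar is the widest.

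Set side by side, the shelterin median log2 difference exceeded that of TERT and the H/ACA genes by 1.09. It was 0.96 with quantile normalization and at most 1.12 over all settings. The filters, the criterion and scaling a whole column can hardly move this value, so its narrow range says little. Summed FPKM was 335 in induced and 667 in uninduced cells for TERT and the H/ACA genes, and 227 and 337 without TERT. For shelterin it was 190.0 in induced and 166 in uninduced cells. Of the shelterin genes 4 lay above 0 and 2 below, where 46.3% of kept genes lay below 0. TERF2 turned to -0.036 with the columns centred on the median log2 ratio of kept genes, and TINF2 turned to 0.086 after both columns were given the same FPKM sum. No difference between the 2 sets was tested, since each condition has 1 value.

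Other genes of telomere biology were described from lists, in which 0 of 82 kept members outside the 10 genes rose or fell, close to the 1.18% of all kept genes. Among genes for the telomerase RNA, its assembly and recruitment, 19 of 20 were kept, 16 lay below 0 and 3 above, and the median log2 difference was -0.47. The chaperone HSP90AA1, which acts in folding TERT, was at 208 FPKM (87.4 to 328) in induced and 537 FPKM (177 to 897) in uninduced cells. PTGES3, the HSP90 cochaperone p23, was at 121 FPKM (57.0 to 184) in induced and 228 FPKM (110 to 347) in uninduced cells. GAR1, the remaining H/ACA core protein, was at 21.3 FPKM (3.53 to 39.1) in induced and 34.3 FPKM (8.77 to 59.8) in uninduced cells. These 3 were lower in value in induced cells with overlapping intervals, as DKC1 and NHP2 were.

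The box C/D proteins, which form the sister particles that methylate ribosomal RNA and are not part of telomerase, gave a median of -0.91 with all 4 kept genes below 0. NOP56 was at 74.3 FPKM (24.9 to 124) in induced and 154 FPKM (59.5 to 249) in uninduced cells. FBL, or fibrillarin, the methyltransferase of the particle, was at 61.3 FPKM (14.9 to 108) in induced and 149.7 FPKM (56.8 to 243) in uninduced cells. The box C/D median was close to the log2 differences of DKC1 and NHP2, but the 4 genes ran from -1.27 to -0.39. NOP10 and GAR1, also of the H/ACA core, were at -0.24 and -0.66. The intervals of all 4 box C/D genes overlapped between conditions.

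The list of CST, the complex that fills in the telomeric strand, and of telomere replication genes had a median of -0.70. Of its 14 kept genes, 11 lay below 0. The other 3 were the CST genes OBFC1, CTC1 and TEN1, at log2 differences of 0.40, 0.37 and 0.03, with overlapping intervals. FEN1, a flap endonuclease, was at 19.5 FPKM (0 to 60.3) in induced and 47.3 FPKM (0 to 102) in uninduced cells. POLA2, a subunit of DNA polymerase alpha, was at 16.1 FPKM (0 to 32.3) in induced and 37.4 FPKM (6.68 to 68.2) in uninduced cells. Genes that bind telomeres or sense damage there had a median of -0.06, with 9 of 17 below 0, and the median turned to 0.12 with both columns at the same FPKM sum. Log2 differences in that list ran from -0.86 to 1.03. Its 2 genes of highest mean FPKM, XRCC6 and XRCC5, the Ku subunits, lay near the lower end. They were at 121 and 93.2 FPKM in induced and at 221 and 160 FPKM in uninduced cells, with overlapping intervals.

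Genes of telomeric chromatin had a median of -0.70, with 8 of 10 below 0. H3F3B, a gene for histone H3.3, was at 338 FPKM in induced and 349.6 FPKM in uninduced cells, and CBX3, a heterochromatin protein, was at 86.5 FPKM in induced and 149.9 FPKM in uninduced cells. Regulators of the endogenous TERT gene had a median of -0.11, with 10 of 15 kept genes below 0, and 0.078 with both columns at the same FPKM sum. MAZ was at 77.6 FPKM in induced and 112 FPKM in uninduced cells, and MAX, the partner of MYC, at 47.8 FPKM in induced and 40.1 FPKM in uninduced cells, all with overlapping intervals. MYC was at 17.9 FPKM (4.41 to 31.3) in induced and 28.9 FPKM (9.96 to 47.8) in uninduced cells. ETS1 alone of these passed the wider criterion, as a decrease, where 1.11% of kept genes did. It was at 14.7 FPKM (4.81 to 24.5) in induced and 40.4 FPKM (17.3 to 63.5) in uninduced cells. After both columns were given the same FPKM sum, ETS1 did not pass. Log2 differences of the kept regulators ran from -1.40 to 1.19.

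Proliferation genes were lower in induced cells, as were TERT, DKC1 and NHP2 in value. All 10 of that list lay below 0 with a median of -1.68, and 3 fell, where 0.454% of kept genes did: the mitotic kinase AURKA, at 12.8 FPKM in induced and 84.6 FPKM in uninduced cells, cyclin B1 (CCNB1), at 29.3 FPKM in induced and 181 FPKM in uninduced cells, and PLK1, another mitotic kinase, at 16.3 FPKM in induced and 103 FPKM in uninduced cells. Their part in the values of the telomerase genes was not tested.

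**Figure D4:**
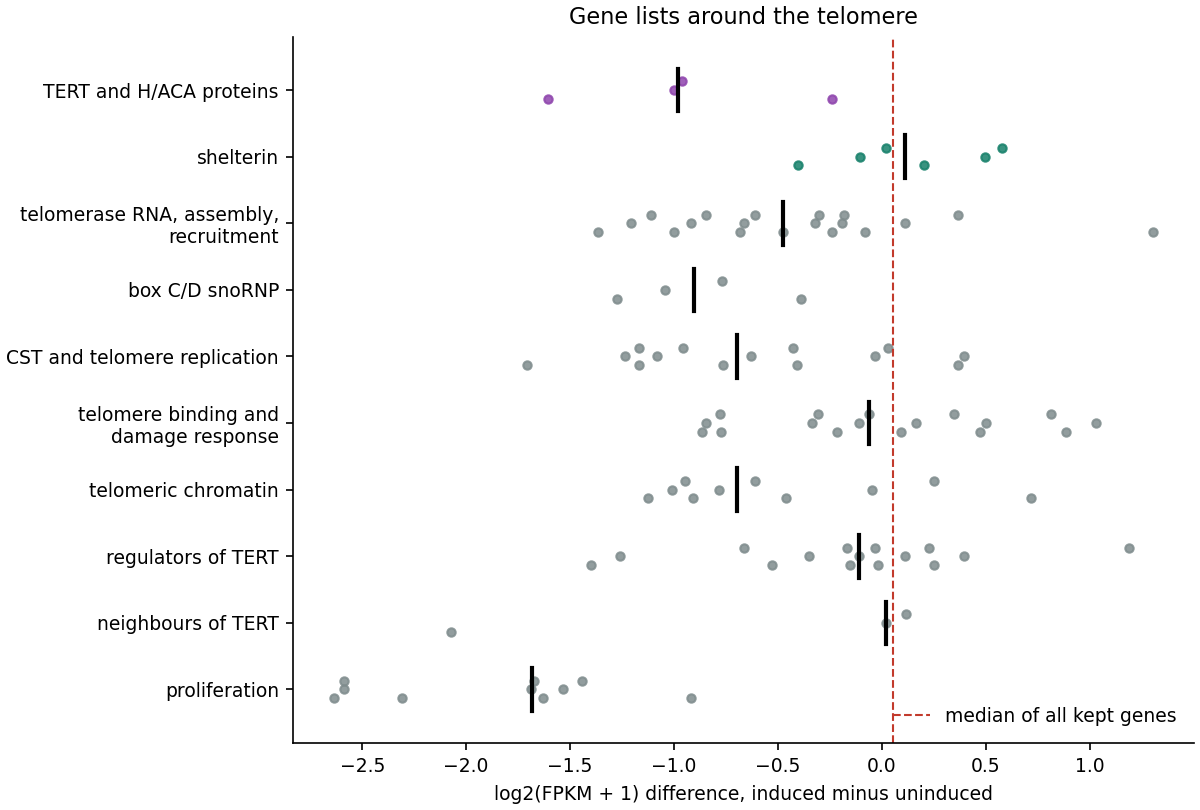
Log2(FPKM + 1) difference, induced minus uninduced, of every kept gene in each list (points), with the list median (black bar) and the median of all kept genes, 0.05 (dashed line). TERT and the H/ACA genes centre at -0.98, shelterin at 0.11 and the proliferation genes at -1.68.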

How the data were processed

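The 4 samples had no file each: the deposited table holds 1 FPKM column for induced and 1 for uninduced cells with lower and upper bounds, per the file headers. Reads were aligned to hg19 with TopHat, per the submitters' processing notes; for the quantifier, filters and pooling of samples nothing is stated. Libraries were not stranded, per the labels' protocols. A further 3 value columns matched no sample and were not used. Where a symbol had several rows, the row with the highest mean was taken. The hg19 positions of genes are the spans of their rows, and several genes can share 1 span. A gene was kept if either column reached 1 FPKM, and log2 differences used a pseudocount of 1. The criterion of non-overlapping intervals was tested on simulated data; 3 kept genes whose bounds did not enclose their FPKM could not be called. The members, lists, motifs and tests were chosen with earlier results of these data known. Named were the 10 genes, FOXA2 and, from each list, up to 4 genes that rose or fell or otherwise the 2 with the highest mean FPKM, and the 3 genes nearest to TERT in level. GAR1, TERC, MYC, ETS1, LPCAT1, POT1-AS1 and the CST genes were chosen after their values were seen. So were the SNORA and pseudogene rows and the neighbours under the filter. Python 3.11.15 with pandas 2.3.3 was used.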

Additional observations from a re-analysis of the deposited data

How the results depend on the processing

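None of the 10 genes was called when the columns were scaled to the same FPKM sum, quantile normalized or centred. The same held with no filter, with a mean of at least 5 FPKM or with a pseudocount of 0.1. These latter settings could not change the calls of the 10 genes. All 10 have a mean above 5 FPKM, and the calls compare intervals without a pseudocount. When only the interval of the difference had to exclude 0, 1 of the 10 (TERT, -1.61), 1 gene of the wider lists (ETS1) and 339 of all kept genes passed, in place of 0, 0 and 169. With that criterion and scaling to the same sum, chosen after seeing the data, 0, 0 and 339 passed, and with quantile normalization, likewise added, 0, 1 and 344. TINF2 reversed to 0.086 after same-sum scaling, under either criterion, and TERF2 reversed to -0.036 with centring, which follows from their near-zero differences. Near-zero medians changed sign too: that of the 10 genes, -0.17, became 0.022, that of telomere binding and damage genes 0.12 and that of TERT regulators 0.078 after same-sum scaling, and that of the TERT neighbours -0.037 with centring. Same-sum scaling moved the median of kept genes to 0.23, against 0.05 as deposited. NOP10 stayed below 0 but came to -0.043 with that scaling and to -0.016 with quantile normalization, from -0.24 as deposited. No paired analysis was possible because samples have no values of their own, so the replicate block and the fits without each replicate were not run. Depth is unknown.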

Other observations

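The 3 kept genes outside the 10 whose levels lay nearest to TERT, by Euclidean distance over the 2 columns in log2(FPKM + 1), were HMGB1, PSMD2 and SFRP1. HMGB1, a chromatin protein, was at 118 FPKM in induced and 305 FPKM in uninduced cells, at a distance of 0.17. PSMD2, a proteasome subunit, was at 123 FPKM in induced and 340.5 FPKM in uninduced cells, and its intervals began at 0 in both. SFRP1, a secreted Wnt antagonist, was at 118 FPKM in induced and 392 FPKM in uninduced cells. With 2 columns such likeness describes level alone.

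H/ACA RNAs, the other cargo of dyskerin, were barely measured: of 436 rows named SNORA, 383 were listed at 0 in both columns and 42 were kept. The kept rows had a median log2 difference of -1.32, with 27 below 0 and 15 above. A row could be kept on the level of 1 column alone, so values near 0 in the other can shape this median. Nothing is read from it about dyskerin. Of these kept rows, 1 fell, where 0.454% of all kept genes did. It was a SNORA70 copy, listed at 0 in induced cells and at 3.81 FPKM (1.27 to 6.34) in uninduced cells. That row passed the filter through its uninduced level alone, which is itself low. SNORA36A, which lies inside the DKC1 span, was listed at 0 in induced cells and at 2.21 FPKM (0 to 15.3) in uninduced cells, and SNORA56, in the same span, was listed at 0 in both.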
